A study of Mus musculus with 3 samples.

Results

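The 2 genes described here, Cenpa and Smc4, were read in 3 single-cell libraries of mouse epidermal Langerhans cells, the antigen-presenting cells that reside in the epidermis. They are 2 of the 34289 features listed. They were chosen by their measured levels in these same libraries, in cells without UMIs (unique molecular identifiers, 1 per captured molecule) of 4 proliferation genes, so the values below describe the choice and no test was made on them. All mice were male Cd1, an outbred stock, and cells came from the epidermis of the ear after removal of dead cells and magnetic enrichment of Langerhans cells. One library came from untreated mice, which had received Nair, a depilatory cream, and nothing else. The next came from mice given croton oil, a skin irritant, together with acetone and olive oil, and the last from mice given multiple microneedle punches, both 48 hours after the first treatment. The number of animals behind each library was not given in the sources used here, and no library of acetone and olive oil alone was analysed here. With 1 library per group, a difference between treatments and a difference between libraries cannot be told apart, and the 95% intervals below cover counting error only.

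CENP-A, the product of Cenpa, is a variant of histone H3 that replaces the canonical histone in centromeric nucleosomes and marks the place where the kinetochore assembles. In dividing cells its transcript accumulates late in the cell cycle with other mitotic transcripts, and the protein is loaded at centromeres by the chaperone HJURP and the MIS18 complex. SMC4 is the ATPase core subunit that condensin complexes share with SMC2, and condensin compacts chromosomes before division and also organises chromatin between divisions. Langerhans cells renew themselves in the epidermis by slow division, and after irritation some of them mature and migrate to lymph nodes.

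Langerhans cells were selected on 2 values, a share of at least 2% of their UMIs from Cd74, H2-Aa, H2-Ab1 and H2-Eb1 (genes of antigen presentation by MHC class II) and at least 2 UMIs of the adhesion gene Epcam. This gave 8651 cells in the untreated library, 5922 in the croton oil library and 5295 in the microneedle library. Gate-negative cells were those with 0 UMIs of Top2a, Mki67, Birc5 and Ube2c together, 4 genes of proliferating cells. They numbered 5475, 3959 and 2661, with a median of 10792, 12016 and 15897 UMIs per cell in the same order. The 4 Langerhans cell markers that the selection did not use, Cd207, Mfge8, Cdh1 and Cd24a, were each above 20 CPM (UMIs of a gene relative to 1000000 UMIs of the summed cells) in gate-negative cells of each library. The median log2 change over all genes compared was -0.03 for croton oil over untreated and 0.04 for microneedle over untreated. In the first of these 50.6% of the 757 genes past 2-fold were higher, a share of 64.6% with TMM scaling. The libraries shared 32, 17 and 13 cell barcodes pairwise, at most 0.388% of the smaller library.

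Cenpa (ENSMUSG00000029177) lies on the forward strand at chr5:30824121-30842921 of GRCm39, the build that the submitters' processing notes name. Smc4 (ENSMUSG00000034349) lies on the forward strand at chr3:68911944-68941960. No other protein-coding or long noncoding RNA gene of the GENCODE M39 annotation overlapped either one, and genes of other types were not searched. Of the 2 genes, Cenpa matched the RefSeq promoter table, which holds 250 bases before and 50 after a gene's start in GRCm38.p6, and Smc4 was not matched. The Cenpa promoter is shown beside those of Top2a, a gene of the gate, and Cdk1, the kinase that drives mitosis, which were picked for display after their matches were seen, because the same 3 short motifs occurred in all of them. Capitals mark the cell cycle homology region (TTTGAA), the CCAAT box (CCAAT) and an E2F core (GGCGGG), searched on both strands, and in these 3 sequences no marked motif overlapped another.
Cenpa promoter, chr5:30666636-30666935, forward strand: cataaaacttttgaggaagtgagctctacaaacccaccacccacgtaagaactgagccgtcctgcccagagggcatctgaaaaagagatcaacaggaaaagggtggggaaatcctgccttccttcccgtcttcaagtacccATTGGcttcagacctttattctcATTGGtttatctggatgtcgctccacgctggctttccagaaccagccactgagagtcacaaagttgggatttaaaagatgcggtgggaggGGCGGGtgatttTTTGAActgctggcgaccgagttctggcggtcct
Top2a promoter, chr11:99024140-99024439, reverse strand: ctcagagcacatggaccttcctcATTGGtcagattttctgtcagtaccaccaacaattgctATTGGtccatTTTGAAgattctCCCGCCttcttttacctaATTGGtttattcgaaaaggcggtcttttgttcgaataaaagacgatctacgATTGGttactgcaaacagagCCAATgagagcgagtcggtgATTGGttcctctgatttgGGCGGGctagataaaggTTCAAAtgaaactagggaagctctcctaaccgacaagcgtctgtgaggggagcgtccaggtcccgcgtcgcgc
Cdk1 promoter, chr10:69352863-69353162, reverse strand: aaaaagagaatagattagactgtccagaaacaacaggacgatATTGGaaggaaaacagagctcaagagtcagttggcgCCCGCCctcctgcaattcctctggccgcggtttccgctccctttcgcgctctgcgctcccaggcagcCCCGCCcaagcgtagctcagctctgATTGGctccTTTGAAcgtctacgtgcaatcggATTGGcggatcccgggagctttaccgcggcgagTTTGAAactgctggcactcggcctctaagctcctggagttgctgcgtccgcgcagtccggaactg
In Cenpa the cell cycle homology region began 16 bases after the start, the CCAAT boxes 109 and 86 bases before it, and the E2F core 4 bases after it. Over all 32851 promoters of the table, 17.9% held TTTGAA, 37.4% held CCAAT and 35.3% held GGCGGG on either strand. Among the 38 promoters of a list of 43 mitotic genes outside the gate, the shares were 78.9%, 73.7% and 71.1%. Of the 4 gate promoters, 3 held TTTGAA, 3 held CCAAT and 4 held GGCGGG; Birc5 held neither of the first pair. These are matches of letters, and binding was not measured.

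Cenpa was highest in the croton oil library and lowest in the untreated one. Summed over gate-negative cells, 1735 Cenpa UMIs gave 27.95 CPM (26.7 to 29.3) in the untreated library. The croton oil library had 7160 UMIs and 142 CPM (138 to 145), and the microneedle library had 2022 UMIs and 46.6 CPM (44.6 to 48.6). The 3 intervals did not overlap. Cenpa was thus 5.07-fold higher (4.81 to 5.35) after croton oil than in the untreated library, a log2 change of 2.15 with 5 CPM added to both sides. It ranked 93 from the top of 6825 genes compared, those of at least 20 CPM in either library, of which 5.61% were higher and 5.48% were lower by 2-fold or more. After microneedling Cenpa was 1.67-fold higher (1.56 to 1.78) than in the untreated library, a log2 change of 0.65. That ranked 525 of 6721 genes, of which 3.72% were higher and 1.89% were lower by 2-fold or more. Both comparisons share the untreated library. Directly between the treated libraries Cenpa was 3.04-fold higher (2.90 to 3.20) after croton oil, ranking 41 of 6627 genes, of which 1.57% were higher and 1.03% were lower by 2-fold or more. In that comparison 60.5% of the genes past 2-fold were higher, a share of 79.1% with TMM scaling.

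The difference in Cenpa was present both in how many cells held a UMI and in how many UMIs the cells held. Before any correction for depth, 20.6% of gate-negative cells held at least 1 Cenpa UMI in the untreated library, 60.8% in the croton oil library and 35.1% in the microneedle library. With every cell thinned to 3000 UMIs, leaving out 87, 31 and 50 shallower cells, the shares were 7.42% (6.74 to 8.16), 29.3% (27.9 to 30.7) and 12.2% (11.0 to 13.5). Cells with 5 or more Cenpa UMIs made up 0.493% of gate-negative cells in the untreated library (27 cells), 11.2% after croton oil (442 cells) and 3.12% after microneedling (83 cells). The highest single cell held 11, 28 and 21 Cenpa UMIs. These classes were not corrected for depth, which was highest in the microneedle library. Cells with 5 or more Smc4 UMIs made up 3.31% of untreated and 6.73% of microneedle cells, although Smc4 was lower in CPM after microneedling (88.4 against 102).

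**Figure D1:**
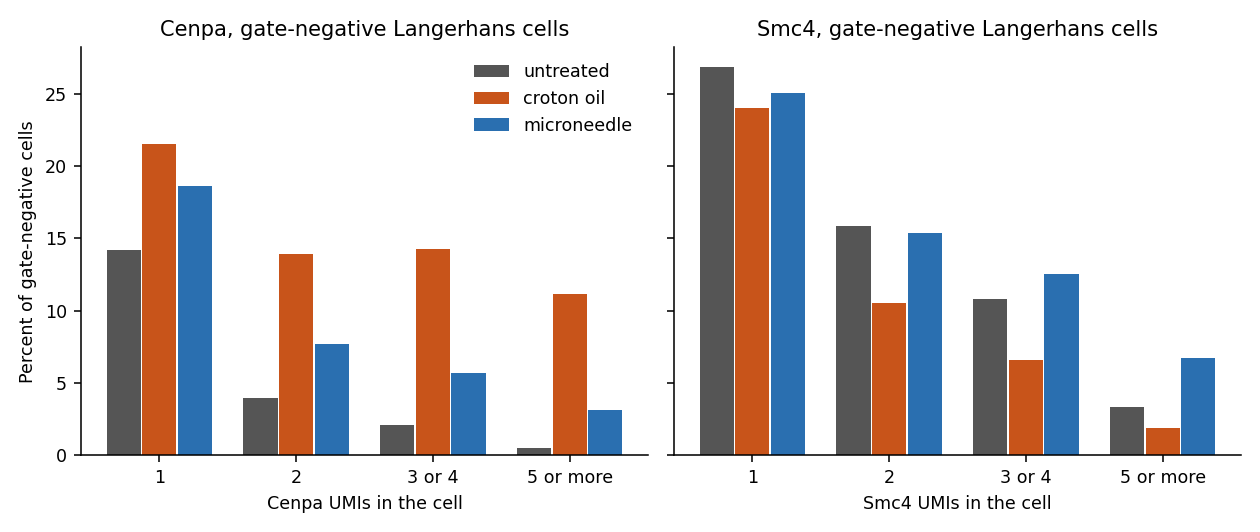
Bars give the percent of gate-negative Langerhans cells (y axis) that held 1, 2, 3 or 4, or 5 or more UMIs of Cenpa (left) or Smc4 (right) in each library (colours). Cells with 0 UMIs make up the rest, the UMIs are not corrected for the depth of the cells, and no error is drawn. For Cenpa the croton oil bars are the highest in every class, with 11.2% of cells at 5 or more against 0.493% of untreated cells, while for Smc4 the croton oil bars are the lowest in every class.

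Sequencing depth differed between libraries, and the order for Cenpa was read within bins of total UMIs per cell. From 5000 to 10000 UMIs the untreated library had 28.1 CPM of Cenpa, the croton oil library 153 and the microneedle library 43.5. From 10000 to 15000 the values were 28.6, 139 and 41.9, and from 15000 to 25000 they were 25.3, 151 and 46.0. Croton oil and untreated intervals did not overlap in any of the 5 bins. Microneedle and untreated intervals overlapped only under 5000 UMIs, where 81 microneedle cells had 18.5 CPM (5.03 to 47.3) and the untreated cells 23.2 CPM. Smc4 was lower after croton oil than in the untreated library in each bin, but the intervals overlapped under 5000 UMIs and at 25000 or more. After microneedling Smc4 was below the untreated level in 4 of 5 bins, with overlapping intervals under 5000 UMIs (97.0 against 99.8 CPM), and at 25000 or more it was 96.5 CPM against 94.3 CPM, also with overlapping intervals.

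**Figure D2:**
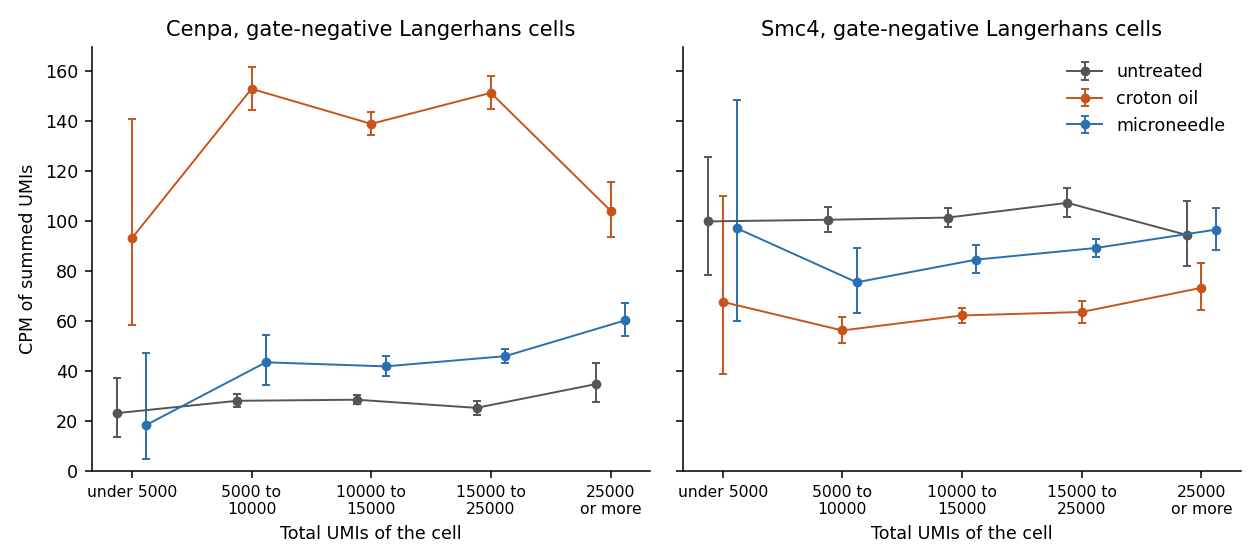
Points give the CPM of Cenpa (left) and Smc4 (right) in gate-negative Langerhans cells grouped by total UMIs per cell (x axis), with bars for the exact 95% Poisson interval, which covers counting error only. Cenpa in the croton oil library lies between 93.0 and 153 CPM and in the untreated library between 23.2 and 34.8 CPM over the 5 bins.

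Against cells with gate UMIs, Cenpa behaved differently by library. In the untreated library it was 25.3 CPM in the 2817 Langerhans cells with 1 to 4 gate UMIs and 136 CPM (127 to 145) in the 359 cells with 5 or more, 4.86-fold (4.48 to 5.26) the gate-negative level. In the croton oil library the same classes had 142 CPM (1838 cells) and 162 CPM (147 to 179; 125 cells), so cells with 5 or more were only 1.15-fold (1.04 to 1.27) above gate-negative cells. In the microneedle library they had 44.6 CPM (2221 cells) and 62.7 CPM (413 cells), a 1.35-fold difference (1.23 to 1.47). Gate-negative croton oil cells therefore stood at a Cenpa level, 142 CPM, inside the interval of the untreated cells with 5 or more gate UMIs.

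Cells with 5 or more gate UMIs were not alike across libraries. Mki67, which encodes the proliferation antigen Ki-67, supplied 41.4% of their gate UMIs in the untreated library, 67.4% after croton oil and 69.5% after microneedling. In 94 of the 359 untreated cells, 75 of the 125 croton oil cells and 234 of the 413 microneedle cells, Mki67 was the only gate gene detected. In those Mki67-only cells Cenpa was 28.5, 124 and 43.8 CPM, close to the gate-negative values. The summed level of the 43 mitotic genes was 3108 CPM in untreated cells with 5 or more gate UMIs, but 510 CPM after croton oil and 557 CPM after microneedling. Keratinocyte markers summed to 2249 CPM in the croton oil cells with 5 or more gate UMIs, against 78.7 CPM in gate-negative ones; their part in the result was not tested.

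A stricter class, with 20 or more gate UMIs, was added after these values were seen. It held 140 untreated, 6 croton oil and 32 microneedle cells, with 6236, 4000 and 4028 CPM of the 43 mitotic genes. There Cenpa was 252 CPM (234 to 270) in the untreated library, 662 CPM (556 to 782) in the 6 croton oil cells and 173 CPM (148 to 200) in the microneedle library. Those levels were 9.0-fold, 4.67-fold and 3.71-fold the gate-negative level of the same library. Requiring all 4 gate genes instead (130, 7 and 25 cells) gave 9.78-fold, 4.47-fold and 4.22-fold. So Cenpa was above its gate-negative level in cells with many gate UMIs in each library, and the fold over gate-negative cells was smallest in the treated ones. Of the 6 croton oil cells, 2 held 10 or more UMIs of keratinocyte markers.

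**Figure D3:**
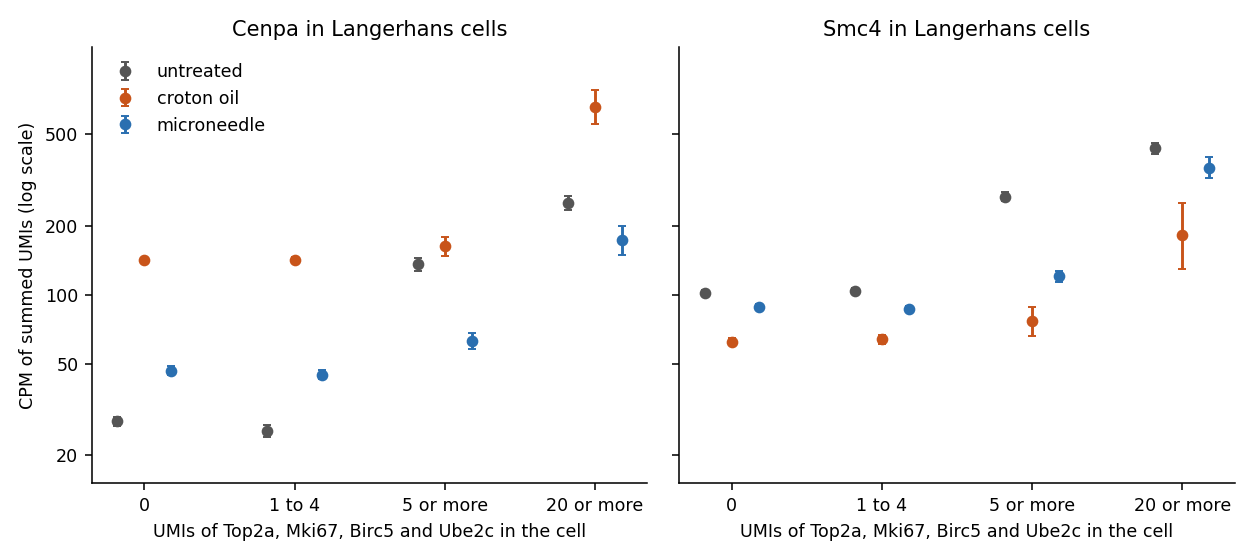
Points give the CPM (log scale) of Cenpa (left) and Smc4 (right) in Langerhans cells by their UMIs of the 4 gate genes together; cells with 20 or more are also in the class of 5 or more, and bars are exact 95% Poisson intervals for counting error. Gate-negative croton oil cells lie at 142 CPM of Cenpa, near the 136 CPM of untreated cells with 5 or more gate UMIs. That untreated class is mixed: it includes 94 cells with Mki67 as the only gate gene (28.5 CPM) and 178 with 2 or more other gate genes (222 CPM). Gate-negative Smc4 is lower after croton oil than untreated (62.4 against 102 CPM).

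The level of Cenpa just inside and outside the limits of the cell rule is given once as a description. With exactly 1 gate UMI Cenpa was 26.95, 148 and 42.1 CPM in the 3 libraries, with 4 gate UMIs 26.8, 144 and 44.1 CPM, and with 5 gate UMIs 40.5, 131 and 44.4 CPM. In the croton oil library, gate-negative cells with 2 Epcam UMIs, just inside, had 306 CPM of Cenpa (155 cells) and those with 1 Epcam UMI, just outside, 280.5 CPM (146 cells). Cells with 2 to 3% of UMIs from the MHC class II genes had 198 CPM (174 cells), and those with 1 to 2% had 312 CPM (105 cells). These croton oil cells at the edge of the rule were thus above the 142 CPM of all gate-negative cells. Cells with 2 or more UMIs of Ccr7 and Fscn1, genes of migrating Langerhans cells, made up 13.5% and 26.03% of those with 2 and 1 Epcam UMIs, against 2.50% of all gate-negative croton oil cells. In the untreated library the same Epcam classes had 28.6 CPM (49 cells) and 29.7 CPM (44 cells), on 4 UMIs each, and in the microneedle library 30.1 CPM (31 cells, 2 UMIs) and 130 CPM (32 cells, 13 UMIs in 3 cells). Cells with 2 to 3% and 1 to 2% of UMIs from the MHC class II genes had 25.2 and 3.46 CPM in the untreated library and 49.1 and 50.8 CPM in the microneedle library.

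Other cells of the same libraries served as a background for free RNA, which enters every droplet. Gate-negative neutrophils had 27.9 CPM of Cenpa (16.2 to 44.6; 163 cells) in the croton oil library and 11.2 CPM (325 cells) in the microneedle library. At 3000 UMIs per cell, 7.37% (3.01 to 14.6) and 4.31% (1.99 to 8.02) of those deep enough, 95 and 209 cells after leaving out 68 and 116, held a Cenpa UMI, on a median of 3231 and 3315 UMIs per cell before thinning. The shares in gate-negative Langerhans cells, 29.3% and 12.2%, were each above the upper bound of the neutrophils in the same library. Gate-negative keratinocytes had 18.4 CPM (25 cells) after croton oil and 1.41 CPM (52 cells) in the untreated library. Gate-negative monocytes and macrophages of the microneedle library had 29.8 CPM (21.5 to 40.3; 161 cells), under the 46.6 CPM of Langerhans cells, but a thinned share of 8.61% (4.66 to 14.3), an interval that includes the 12.2% of Langerhans cells. Gate-negative T cells stood higher, at 127 CPM (102 to 155; 106 cells) after croton oil, an interval that overlaps the 142 CPM of Langerhans cells. In the microneedle library 10 such T cells had 240 CPM (164 to 338), above the 46.6 CPM of its Langerhans cells. Keratinocytes with 5 or more gate UMIs had 184 CPM in the croton oil library (104 cells) and 174 CPM in the microneedle library (15 cells).

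RNA of other cell types in the gate-negative Langerhans cells was measured through marker lists. The 8 T cell markers summed to 4.88 CPM in the untreated library (1 of 8 at 0, Trbc1), 55.1 CPM after croton oil and 21.5 CPM after microneedling, so they moved in the same order as Cenpa, and none reached 20 CPM in any library. The 7 keratinocyte markers summed to 236, 78.7 and 56.3 CPM, with 3, 1 and 1 of them at 20 CPM or more. The 6 monocyte and macrophage markers summed to 35.8, 20.4 and 26.2 CPM, with Ly6c2 at 0 in the untreated library. Of the 6 neutrophil markers, which summed to 2370, 2580 and 3773 CPM, Il1r2 alone supplied 2360, 2535 and 3751 CPM, and S100a8 and Retnlg were at 0 in the untreated library. Without cells above set limits of keratin, T cell, or S100a8 and S100a9 UMIs, Cenpa was 28.0, 143 and 46.3 CPM, within the intervals of all gate-negative cells. Cells with fewer of these UMIs stayed in, and monocyte and macrophage markers were not used for this removal.

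Summed over gate-negative cells, Smc4 was lower in the treated libraries. Its level in gate-negative cells was 102 CPM (99.5 to 105) in the untreated library, 62.4 CPM (60.2 to 64.6) after croton oil and 88.4 CPM (85.7 to 91.3) after microneedling, on 6333, 3151 and 3840 UMIs. The intervals did not overlap, and the order was the reverse of that of Cenpa. Smc4 was 1.64-fold lower (1.57 to 1.71) after croton oil than in the untreated library, a log2 change of -0.67, and 1.15-fold lower (1.11 to 1.20) after microneedling. Between the treated libraries it was 1.42-fold lower (1.35 to 1.49) after croton oil. None of these changes reached 2-fold. At 3000 UMIs per cell, 24.4% (23.2 to 25.6), 15.9% (14.8 to 17.1) and 20.5% (18.9 to 22.1) of cells held an Smc4 UMI.

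Smc4 was above its gate-negative level in cells with 5 or more gate UMIs of each library. Cells with 1 to 4 had 1.01-fold (0.973 to 1.05), 1.02-fold (0.963 to 1.08) and 0.977-fold (0.934 to 1.02) the gate-negative level in the untreated, croton oil and microneedle libraries, and each interval included 1. Cells with 5 or more had 268 CPM in the untreated library, 76.5 CPM after croton oil and 120 CPM after microneedling, which is 2.62-fold (2.49 to 2.76), 1.23-fold (1.06 to 1.42) and 1.36-fold (1.27 to 1.45) the gate-negative level. In cells with 5 or more gate UMIs that were all of Mki67, Smc4 was 113, 61.7 and 89.5 CPM, with intervals that included the gate-negative values. Cells with 20 or more had 435, 182 and 358 CPM of Smc4, or 4.27-fold, 2.92-fold and 4.05-fold. In other gate-negative cells of the croton oil library Smc4 was 38.4 CPM in keratinocytes, 120 CPM in T cells and 27.9 CPM in neutrophils. Gate-negative cells with both genes numbered 654, 1075 and 584 in the untreated, croton oil and microneedle libraries. In croton oil cells with and without a Cenpa UMI at 3000 UMIs per cell, Smc4 was 60.9 and 62.5 CPM, a log2 difference of -0.04.

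The other genes around CENP-A were read from lists. Of 7 chaperones and deposition factors, 3 were compared after croton oil, all were below 0, beside 52.5% of all genes compared, and the median log2 change was -0.36. Of those 3, the histone chaperone Nasp went from 124 CPM untreated to 91.7 CPM, Rbbp4 from 110.0 to 85.9 and Rbbp7 from 55.7 to 42.4. Hjurp, the chaperone that loads CENP-A, was 15.7, 12.2 and 9.47 CPM in the 3 libraries, under the limit of 20 CPM. Mis18a was 13.9, 14.3 and 13.7 CPM. Of 16 other centromere proteins 4 were compared, 2 above and 2 below 0: Cenpb was 43.2, 68.0 and 65.6 CPM, Cenpx 38.1, 55.8 and 37.6, Cenpl 37.1, 29.2 and 49.5, and Cenpc1 84.0, 46.8 and 74.4. None of the compared members of either list reached 2-fold in any of the 3 comparisons.

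Few members of the cell cycle lists reached 20 CPM in these cells. Of the 43 mitotic genes, 1 was compared after croton oil, Kif23, a motor of cell division, at 37.0, 11.3 and 19.0 CPM in the untreated, croton oil and microneedle libraries (log2 -1.37 and -0.81). Summed, the 43 genes were 184, 103 and 140 CPM in gate-negative cells, the reverse order of Cenpa. Of 30 DNA replication genes 6 were compared after croton oil and 6 were below 0 (5 with TMM scaling), with a median of -0.72, beside 52.5% of all genes compared below 0. Kif23, Mcm7 and Chaf1b passed 20 CPM only in the untreated library, where they were high. Over all members, those under 20 CPM included, the median log2 change was -0.14 for the 30 replication genes and -0.11 for the 43 mitotic genes, and over all genes compared it was -0.03. Pcna, the sliding clamp of replication, was 149 CPM untreated, 87.6 CPM after croton oil and 91.8 CPM after microneedling, and Chaf1b, of the replication-coupled histone chaperone, was 28.0, 9.38 and 12.8 CPM. The gate itself selects against cells with these transcripts, in all 3 libraries. Of the 14 G1 cyclins, CDKs and inhibitors 8 were compared after croton oil. By 2-fold or more 1 was higher and 2 were lower, beside 5.61% and 5.48% of all genes. The inhibitor Cdkn1a was the higher one (126 to 327 CPM, log2 1.34), with 194 CPM after microneedling, the same order as Cenpa. The cyclins Ccnd3 (286 to 115 CPM, -1.28) and Ccnd1 (118 to 46.9 CPM, -1.24) were lower. Cdk6 was 39.9, 84.6 and 78.3 CPM in the 3 libraries, and with TMM scaling its croton oil change also passed 2-fold.

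Among the relatives of Smc4, 3 of the 7 other condensin subunits were compared after croton oil, and none was past 2-fold. Its partner Smc2 was 22.3 CPM untreated, 16.8 CPM after croton oil and 16.9 CPM after microneedling, and so reached 20 CPM only in the untreated library. The other 2 had log2 changes of 0.13 (Ncaph2) and -0.31 (Ncapd3) after croton oil. Ncaph2, of condensin II, was 32.3, 35.9 and 32.8 CPM. The list of cohesin, its regulators and the other SMC proteins Smc5, Smc6 and Smchd1 had 12 members, all compared, with 11 below 0 after croton oil and a median of -0.20, beside 52.5% of all genes below 0. With TMM scaling 9 were below 0, beside 44.8% of all genes, and with median-of-ratios scaling 7, beside 43.8%. Stag2 was the lowest of these, from 227 to 142 CPM (-0.66), next to the -0.67 of Smc4, and Nipbl, the cohesin loader, went from 323 to 256 CPM. After microneedling the same list had 6 members above and 6 below 0, beside 45.8% of all genes below 0. TMM scaling gave 4 above and 8 below there, beside 50.5% of all genes below 0.

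Histone variants deposited outside replication were a further group, and 7 of them were compared. After croton oil 4 were above 0 (5 with TMM scaling) and 3 below, beside 52.5% of all genes below 0, and after microneedling 2 were above and 5 below, beside 45.8%. Past 2-fold after croton oil was 1 of 7, beside 5.61% of all genes: the linker histone H1f0, at 40.6, 91.4 and 53.8 CPM, with log2 changes of 1.08 after croton oil and 0.37 after microneedling. H2az1 was 1014, 1363 and 842 CPM and H3f3a 1400, 1645 and 1082 CPM. Cenpa, with 2.15, was above all 7. Of 10 ribosome biogenesis genes compared none passed 2-fold (median 0.14 after croton oil and 0.00 after microneedling). Of 10 NF-kB pathway genes 1 was higher, Il1b (70.2 to 666 CPM), and 1 lower, Tnf (598 to 233 CPM), by 2-fold or more after croton oil. Over all genes those shares were 5.61% and 5.48%, and the median of the 10 was -0.02.

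**Figure D4:**
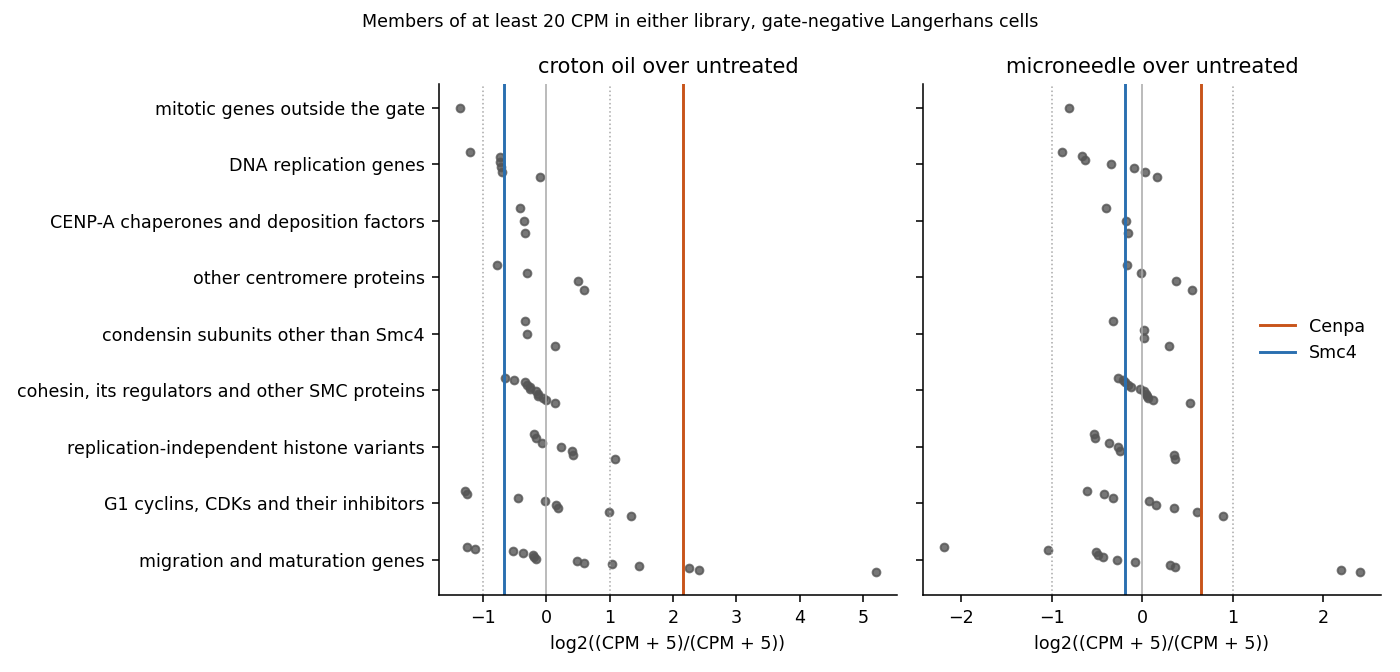
Each point is a gene of at least 20 CPM in either library, in gate-negative Langerhans cells, placed by its log2((CPM + 5)/(CPM + 5)) between libraries, and rows are gene lists; solid vertical lines mark Cenpa (orange) and Smc4 (blue), and dotted lines mark 2-fold. After croton oil Cenpa (2.15) lies to the right of the points of the first 8 lists, while Smc4 (-0.67) lies near the lowest of the cohesin and SMC genes; after microneedling Cenpa is at 0.65.

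Migration and maturation genes held members with changes as large as that of Cenpa after croton oil, as did the NF-kB list with Il1b (log2 3.16). Of 14 maturation genes compared, 5 were higher and 2 were lower by 2-fold or more, beside 5.61% and 5.48% of all genes. Of those 5, Tnfrsf9, Traf1, Il4i1 and Ccl22 were under 20 CPM in the untreated library and entered the comparison only through croton oil, where they were high, so their count supports nothing about the list. Tnfrsf9, a costimulatory receptor, went from 8.26 to 485 CPM (65.4 after microneedling), Cd80 from 45.9 to 265 (228), Traf1 from 4.25 to 38.9 (17.4), Il4i1 from 4.53 to 21.4 (5.73) and Ccl22 from 8.09 to 21.9 (4.61). Cd83 was lower (1555 to 654 CPM) and so was Birc3 (692 to 315 CPM). With TMM or median-of-ratios scaling 1 member in place of 2 was lower by 2-fold or more. After microneedling 2 of 11 were higher and 2 were lower by 2-fold or more, beside 3.72% and 1.89% of all genes. Of these, Tnfrsf9 and Ccl17 each reached 20 CPM only in the library where they were high.

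Gate-negative croton oil cells were also split by single genes of these states. The 99 cells with 2 or more UMIs of Ccr7 and Fscn1 had 325 CPM (296 to 356), against 136 CPM (133 to 140) in the other 3860. Cells with a Tnfrsf9 UMI (2969) had 155 CPM and those without (990) 96.9 CPM, and the latter was still above the 27.8 CPM of untreated cells without Tnfrsf9. Cenpa was 150 CPM (145 to 156) in cells with 5 or more Il1b UMIs and 137 CPM (133 to 141) in the rest. It was 143 CPM (140 to 147) in cells with Cd207, the gene of langerin, and 136 CPM (129 to 143) in the 971 cells without a Cd207 UMI, with overlapping intervals. By UMIs of the complement genes C1qa, C1qb and C1qc, Cenpa was 141 CPM in cells with 2 or more and 154 CPM in the rest, also with overlapping intervals. In the microneedle library the 17 cells with Ccr7 and Fscn1 had 142 CPM (105 to 188) against 45.8 CPM in the rest, and cells with Tnfrsf9 had 61.7 CPM against 40.0 CPM. In the untreated library the 11 cells with Ccr7 and Fscn1 had 39.4 CPM (15.8 to 81.2), an interval that includes the 27.9 CPM of the rest. The Smc4 values for croton oil cells with and without Ccr7 and Fscn1 were 69.3 and 62.2 CPM.

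Genes co-detected with Cenpa in the croton oil library were taken by comparing 1150 gate-negative cells that held a Cenpa UMI at 3000 UMIs per cell with 2778 that did not. Of 6423 genes of at least 20 CPM in either, 0.638% were higher and 0.156% were lower by 1.5-fold or more in cells with Cenpa. The highest was Fscn1, an actin-bundling gene of migrating dendritic cells, at 40.6 CPM with Cenpa and 8.16 CPM without (log2 1.79). It was followed by the amino acid oxidase gene Il4i1 (1.47), the calcium channel subunit Cacnb3 (1.27), Tmem51 (1.17), Samsn1 (1.08), the transcription factor Runx2 (1.06) and the chemokine receptor Ccr7 (1.05). Then came Fabp5 (0.98), Lima1 (0.86), Slc35f6 (0.83), the phosphatidylserine receptor gene Timd4 (0.80) and Eno3 (0.79). At least Fscn1, Ccr7 and Cacnb3 were under 20 CPM over all gate-negative croton oil cells (19.3, 19.6 and 17.2 CPM). They entered the comparison only through the cells with Cenpa, where they were high, so their ranks are a description only. The 5 lowest were H2-M5 (-0.87), Spp1 (-0.82), Cd69 (-0.73), Tnf (-0.70) and Immp2l (-0.67), but of these 1 stayed among the 5 lowest with a wider gate of 26 proliferation genes, 2 without thinning and 2 at 5000 UMIs per cell. Over all genes the median log2 difference was 0.00, with 50.9% above 0.

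Much of this list rested on the 99 cells with Ccr7 and Fscn1. Without them 4 of the 12 genes stayed among the 12 highest, and Fscn1 (-0.00), Samsn1 (0.00), Il4i1 (0.07) and Ccr7 (0.15) were near 0, as the removal of those cells by Fscn1 and Ccr7 itself entails for these 2 genes. Tmem51 (0.97), Runx2 (0.87), Slc35f6 (0.84), Timd4 (0.74), Eno3 (0.61), Lima1 (0.60) and Cacnb3 (0.53) were still above 0.5. The level of Cenpa itself was 136 CPM without those cells. In the other libraries, which did not choose the genes, 6 of the 12 were above 0 in the untreated library (400 cells with Cenpa) and 9 in the microneedle library (319 cells), beside 52.2% and 50.9% of all genes. Only 1 of the 12 reached 20 CPM there in the untreated library and 3 in the microneedle library. Slc35f6 and Cacnb3 were among those above 0 in both, at 0.41 and 0.77 for Slc35f6 and 0.31 and 0.32 for Cacnb3, in the same order. The 5 lowest genes were below 0 in 2 of 5 cases in either library.

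**Figure D5:**
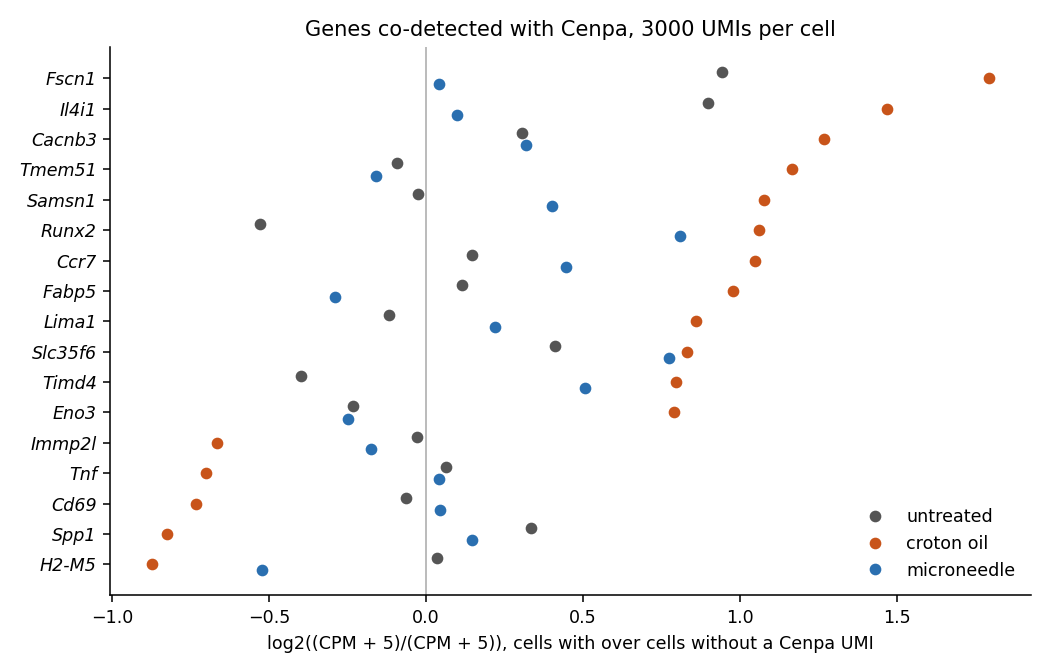
For the 12 highest and 5 lowest genes in the croton oil library, points give the log2((CPM + 5)/(CPM + 5)) between gate-negative Langerhans cells with and without a Cenpa UMI, all thinned to 3000 UMIs per cell, in each library (colours). The croton oil values, which chose the genes, run from 1.79 for Fscn1 to -0.87 for H2-M5; of the 12 highest, 6 are above 0 in the untreated and 9 in the microneedle library.

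For Smc4 the same comparison in croton oil (624 cells with a UMI) put 0.156% of 6423 genes higher and 0.109% lower by 1.5-fold or more. Its 8 highest genes had 4 members above 0 in the untreated and 3 in the microneedle library, beside 51.6% and 50.4% of all genes. Only 1 of the 8 stayed among the highest at 5000 UMIs per cell and 2 without thinning, so no gene is given as going with Smc4.

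The neighbours of Cenpa on chromosome 5 were read because close genes can share reads or chromatin, and neither was tested. Slc35f6, a transporter gene on the same strand that ends 7047 bases before Cenpa, was 15.5 CPM untreated, 36.2 CPM after croton oil and 24.8 CPM after microneedling (log2 1.00 and 0.54). It followed the same order as Cenpa at a smaller size, and it was among the genes co-detected with Cenpa. Kcnk3, further before, was 1.59, 0.673 and 0.898 CPM, and Dpysl5, 25987 bases after, was 0.113, 1.35 and 0.691 CPM. Beside Smc4, Ift80 begins 24 bases away on the opposite strand and was 20.5, 13.6 and 20.5 CPM. Trim59, 661 bases away on the opposite strand, was 12.3, 4.57 and 6.26 CPM.

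The 6 genes whose pair of log2 changes against the untreated library lay nearest to that of Cenpa, by straight-line distance among 6952 genes over 3 libraries, were Rab3il1 (0.08), Socs3 (0.16), Eps8 (0.19), Lfng (0.21), Pltp (0.25) and Cacna1a (0.30). Socs3, a feedback inhibitor of cytokine signalling, was 23.7 CPM untreated, 111 CPM after croton oil and 37.5 CPM after microneedling. Eps8, an actin regulator, was 18.5, 88.1 and 29.5 CPM. None of the 6 is a cell cycle gene of the lists used here. Few mitotic and replication genes reached 20 CPM and could be compared, so no conclusion is drawn from this absence. Rab3il1, Lfng, Pltp and Cacna1a were under 20 CPM in the untreated and microneedle libraries and entered only through croton oil, where they were high. Among those nearest to Smc4 were Acer3 (0.00), Dglucy (0.01), Actr6 (0.02), Cep57l1 (0.02) and Slc43a2 (0.02). Acer3, a ceramidase gene, was 450 CPM untreated, 281 CPM after croton oil and 393 CPM after microneedling.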

How the data were processed

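The authors deposited whole-number UMI counts per gene and cell, written by Cell Ranger 8.0.0 per the file headers and aligned to GRCm39 per the submitters' processing notes, from 10x 3' libraries of polyA RNA; other settings were not given in the sources used here. The members and gene lists were chosen with earlier results of these data known. Each library held 117178809 to 127666928 UMIs.

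Cells with at least 500 genes and at most 10% mitochondrial UMIs were kept. Scrublet (scanpy 1.11.5) made 1, 0 and 0 automatic doublet calls, which was taken as not having worked, so the highest scores were removed at 0.8% per 1000 cells (773, 532 and 376 cells). This left 9054, 7626 and 6479. Counts were summed per library and class and divided by the total to give CPM, with exact Poisson intervals for levels and exact Clopper-Pearson intervals for shares of cells. Ratios had conditional binomial intervals. Changes were log2 of CPM with 5 added to each side, among genes of at least 20 CPM in either library, a scale that understates low genes. The functions were tested on simulated counts. Named genes were Cenpa and Smc4, the genes highest and lowest in co-detection, those of nearest pattern (1 of them is not reported here), neighbours, and list members past 2-fold or of the highest level; Hjurp, Mis18a, Ncaph2, Cdk6 and others of small lists were chosen after their values were seen. Alternatives covered doublets, the gate, the cell rule, the denominator, scaling (edgeR 4.0.16 in R 4.3.3), the pseudocount, the CPM minimum and thinning; those with 20 or more gate UMIs or all 4 gate genes were added after seeing the data. Python 3.11.15, numpy 2.4.6, scipy 1.17.1 and pandas 2.3.3 were used.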

Additional observations from a re-analysis of the deposited data

How the results depend on the processing

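Each group had 1 library, so what a second library would give is unknown, and depth limits every value to its counting error. No paired analysis was possible because each group had 1 library. Over 10 alternatives the log2 change of Cenpa stayed above 0, from 1.95 to 2.30 after croton oil and from 0.53 to 0.72 after microneedling, and that of Smc4 below 0, from -0.71 to -0.54 and from -0.32 to -0.18. With the wider gate of 26 genes, Cenpa was 29.9 and 146 CPM in the untreated and croton oil libraries and Smc4 59.7 CPM after croton oil, and the log2 change of Cenpa was 0.53 and 1.59 for microneedle over untreated and croton oil over microneedle. With at least 5% MHC class II UMIs and 4 Epcam UMIs, Cenpa was 124 CPM after croton oil, in 25.5% of thinned cells, and its log2 change 1.95 and 1.37 for croton oil over untreated and over microneedle. Smc4 was then 60.1 and 78.9 CPM in the treated libraries, and its log2 change -0.32 and -0.37 for microneedle over untreated and croton oil over microneedle. A total without mitochondrial and ribosomal protein genes gave 32.2, 159 and 51.8 CPM of Cenpa and 117, 69.8 and 98.4 CPM of Smc4. Without cells with 2 or more UMIs of Ccr7 and Fscn1, Cenpa was 136 CPM after croton oil. With TMM scaling the log2 changes for croton oil over untreated and over microneedle were 2.27 and 1.67 for Cenpa and -0.55 and -0.31 for Smc4, and 39 genes were at least 2-fold lower in the latter. With median-of-ratios scaling the log2 changes for croton oil over untreated and over microneedle were 2.29 and 1.66 for Cenpa and -0.54 and -0.33 for Smc4, and 39 genes were at least 2-fold lower in the latter. With 1 CPM added in place of 5 the same Cenpa changes were 2.30 and 1.59. At a minimum of 50 CPM, 227, 73 and 42 genes were at least 2-fold lower for croton oil over untreated, microneedle over untreated and croton oil over microneedle, of fewer genes compared. Without thinning, 20.6, 60.8 and 35.1% of cells held a Cenpa UMI and 56.8, 43.1 and 59.7% an Smc4 UMI. At 5000 UMIs per cell, 11.5, 40.0 and 16.9% of cells held a Cenpa UMI and 36.1, 23.9 and 31.4% an Smc4 UMI. For cells with 20 or more gate UMIs the folds over gate-negative cells were 9.0, 4.67 and 3.71 for Cenpa and 4.27, 2.92 and 4.05 for Smc4. For cells with all 4 gate genes the folds over gate-negative cells were 9.78, 4.47 and 4.22 for Cenpa and 4.42, 2.94 and 4.58 for Smc4. Of the 12 genes most co-detected with Cenpa, 4 stayed without Ccr7 and Fscn1 cells. Of the 5 least co-detected, 3 stayed without doublet removal, 1 with the wider gate, 2 without thinning and 2 at 5000 UMIs per cell. Of the 8 for Smc4 these were 5, 4, 2 and 1. Co-detection changed sign for Fscn1 with Cenpa (-0.0020) and Ccl22 with Smc4 (-0.10) without Ccr7 and Fscn1 cells, for Ccl17 and Kit with Smc4 without thinning (-0.097 and -0.12) and for Kit at 5000 UMIs (-0.25). Medians over the members of some lists changed sign. Without doublet removal the median was cohesin and other SMC 0.0040 (microneedle over untreated), ribosome biogenesis -0.0083 (microneedle over untreated), NF-kB 0.017 (croton oil over untreated). With the wider gate the median was condensin -0.021 (microneedle over untreated), cohesin and other SMC 0.0049 (microneedle over untreated), maturation -0.099 (microneedle over untreated), NF-kB 0.016 (croton oil over microneedle). With TMM scaling the median was replication 0.039 (croton oil over microneedle), CENP-A deposition 0.037 (croton oil over microneedle), NF-kB 0.15 (croton oil over microneedle), condensin -0.015 (microneedle over untreated), ribosome biogenesis -0.040 (microneedle over untreated), G1 0.062 (croton oil over untreated), NF-kB 0.10 (croton oil over untreated). With median-of-ratios scaling the median was replication 0.035 (croton oil over microneedle), CENP-A deposition 0.035 (croton oil over microneedle), NF-kB 0.14 (croton oil over microneedle), centromere 0.0076 (croton oil over untreated), G1 0.075 (croton oil over untreated), NF-kB 0.11 (croton oil over untreated), ribosome biogenesis -0.011 (microneedle over untreated). With 1 CPM added the median was G1 0.0056 (croton oil over untreated). Over members of at least 20 CPM the median was centromere 0.098 (croton oil over untreated), G1 0.065 (croton oil over untreated), maturation -0.28 (microneedle over untreated). The cause of these changes was not tested.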
